A study of Neurospora crassa with 8 samples.

Results

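A set of 24 genes, of 9730 in the count files, was higher in iron-free than in standard medium in both wild type and the ve-1 mutant of Neurospora crassa, a filamentous ascomycete. Counts were divided by median-of-ratios size factors, which puts the libraries on a common scale, and the mean of each group plus 1 was used. A gene was taken where both iron-free means were at least 100 and under 3-fold apart and where the iron-free mean was at least 3-fold over the standard mean in each genotype. A further 6 genes were left out by name, of which 3 met these thresholds. The genes were thus chosen by their measured group means in both media, and their higher levels without iron are a description here, not a test. All 24 genes passed the filter on low counts and were among the 8118 genes tested.

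Poly(A) RNA came from mycelia of 4 groups, with 2 libraries in each: wild type in standard Vogel's medium, ve-1 in standard medium, wild type in iron-free medium and ve-1 in iron-free medium. All cultures were started from conidia and shaken for 48 hours at 32 degrees C with 1.5% sucrose. The iron-free medium was made without iron, in glassware treated with EDTA and acid. The labels give no strain background, allele or mating type, and the cells of a mycelium were not separated, so fewer cells of a kind and less RNA per cell cannot be told apart. The labels name the source material as germinated conidia and the tissue as mycelia. The 2 libraries of a group are from duplicate cultures, and the labels do not say whether these were grown at separate times or from the same strain. Counts of the mating-type gene matA-1, given below, were 0 in 1 of the wild-type duplicates and not in the other, in the same direction in both media. The duplicates may thus be of unlike strains, which was not tested. The p-values below set a change against the spread between duplicate cultures, estimated from the 4 groups in 1 fit. That spread may include a difference of strain.

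As background, fungi short of iron secrete and store siderophores, small peptides built on ornithine that bind ferric iron. In N. crassa the GATA factor SRE represses siderophore synthesis when iron is plentiful. Ornithine is made in the mitochondrion in acetylated steps and is also an intermediate of arginine synthesis. Iron is needed as heme or iron-sulfur clusters in respiration, in the tricarboxylic acid cycle and in steps of sterol synthesis. VE-1 is a velvet protein, and the series title places it in a complex with VE-2 and LAE-1.

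Total counts per library ran from 6654585 to 10192729. Transcripts of ve-1 (NCU01731) were at 1587 ± 444 normalised counts with iron and 2069 ± 261 without it in wild type, and the ve-1 libraries held 29.8 ± 9.37 and 33.2 ± 26.2 (SD, n = 2). The iron response was visible in sre (NCU07728), which was at 1185 ± 320 with iron and 88.7 ± 29.1 without it in wild type, and at 1418 ± 232 and 62.4 ± 2.33 in ve-1 (SD, n = 2). It fell in both (log2 fold change -3.77, SE 0.34, edgeR adjusted p = 0.005857, and -4.48, SE 0.35, adjusted p = 0.002564). Replicates were unequal in the mating-type gene matA-1, with raw counts of 118 and 0 in wild-type standard libraries, 74 and 0 in the wild-type iron-free ones, 0 and 403 in ve-1 standard and 1 and 5 in ve-1 iron-free ones. Genes of conidiation, the making of asexual spores (conidia), and clock-controlled (ccg) genes differed with medium too. They were read as 1 list of 16 genes, called the conidiation list below. Its sum is not a measure of conidia alone. The summed level of these 16 genes was 1009374 and 759933 normalised counts in wild-type standard and 1056104 and 1175841 in ve-1 standard libraries. It was 196161 and 218164 in wild-type iron-free, and 575434 and 131887 in ve-1 iron-free libraries. Of the wild-type standard sums, ccg-14 held 155560 and 218348, and eas 439747 and 76601. In each genotype 15 of the 16 had a lower mean without iron, and 2 of them, ccg-4 and con-13, had 0 counts in at least 1 library. The hydrophobin gene eas, a conidial marker, was at 258174 ± 256783 with iron and 9742 ± 1097 without it in wild type, while the ve-1 cultures held 799974 ± 52593 and 225090 ± 290017 (SD, n = 2). The part of this shift in the values of the 24 genes was not tested.

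Levels of the 24 genes spanned a wide range. Summed over the set, they came to 20855 and 27593 normalised counts for wild type with iron and to 58298 and 142629 without it; in ve-1 the sums were 10020 and 14311 with iron and 78880 and 97629 without it. In wild type the standard means ran from 25.0 to 9489 and the iron-free means from 100.5 to 30937, and in ve-1 from 17.1 to 3017 and from 107.5 to 38809. The fold over standard medium ran from 3.17 to 13.5 in wild type, with a median of 4.01, and from 3.24 to 21.0 in ve-1, with a median of 5.59. It was the larger in ve-1 for 17 genes and the larger in wild type for 7.

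**Figure D1:**
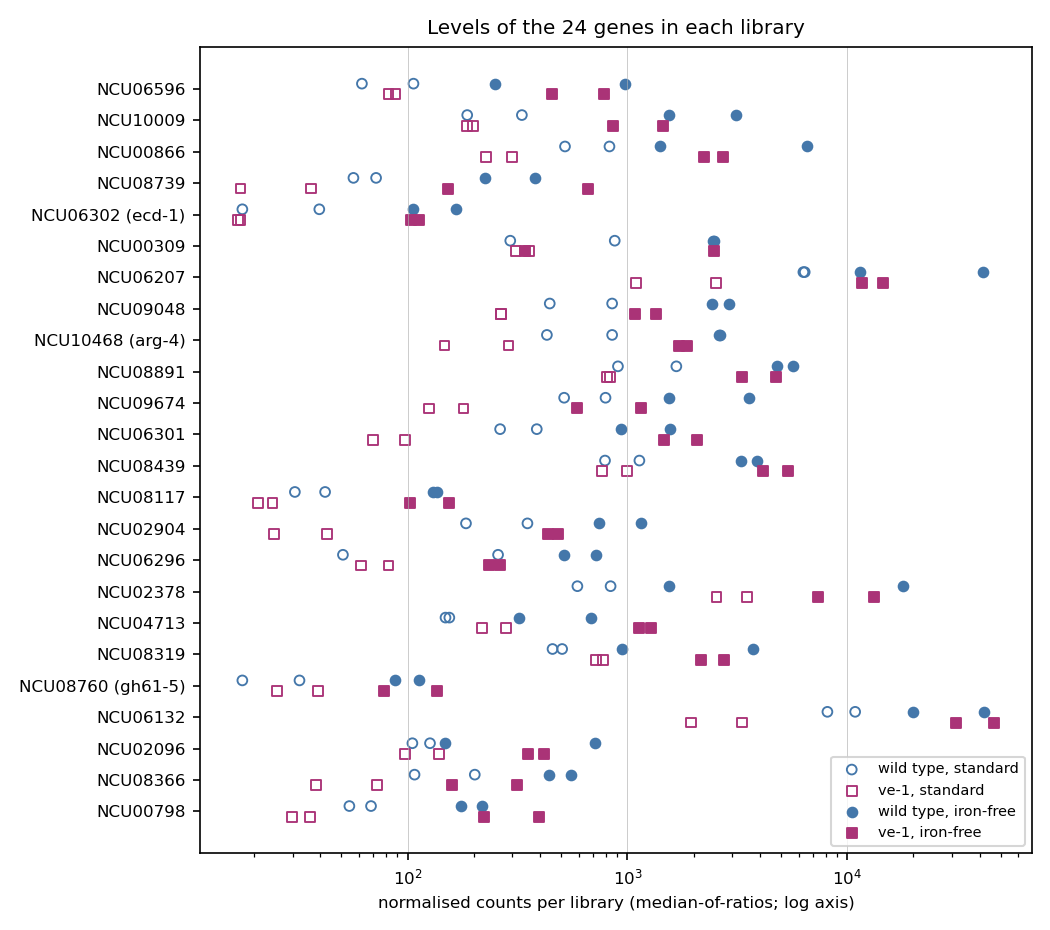
Normalised counts of the 24 genes in each of the 8 libraries on a log axis, ordered from the top by the smaller of the folds in the 2 genotypes; circles are wild type, squares ve-1, open symbols standard medium and filled symbols iron-free medium. Filled symbols lie to the right of the open ones of the same genotype in every gene except NCU00309, whose lower ve-1 iron-free library, at 342, falls between the ve-1 standard libraries.

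Only 3 of the 24 genes have a symbol in the annotation used. The first, arg-4 (NCU10468), encodes the acetyltransferase that transfers the acetyl group of acetylornithine to glutamate and so releases ornithine. It was at 430 and 852 normalised counts with iron and at 2639 and 2598 without it in wild type; in ve-1 it was at 147 and 288 with iron and at 1862 and 1712 without it. The 4 iron-free libraries lay above all 4 standard libraries and close together within each genotype. The fold was 4.08 in wild type and 8.19 in ve-1.

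The second, gh61-5 (NCU08760), belongs to the GH61 family of lytic polysaccharide monooxygenases, copper enzymes that cleave plant cell wall polysaccharides. It was among the lowest of the set, at 17.7 and 32.2 normalised counts with iron and 87.8 and 113 without it in wild type, and at 25.5 and 39.0 with iron and 78.5 and 137 without it in ve-1. Its raw counts ran from 15 to 211. The folds were 3.91 and 3.26, and the genotypes overlapped in each medium. The third, ecd-1 (NCU06302), was at 17.7 and 39.7 with iron and 106 and 166 without it in wild type, and at 17.4 and 16.9 with iron and 104 and 113 without it in ve-1. Both media were well apart in both genotypes (folds of 4.61 and 6.04), and the iron-free levels of the genotypes overlapped.

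The remaining 21 genes have a locus identifier only, and no role is given for them. Among the most abundant, NCU06132 was at 8120 and 10858 normalised counts with iron and 19880 and 41995 without it in wild type. In ve-1 it was at 1953 and 3311 with iron and 31056 and 46561 without it. The genotypes thus reached overlapping iron-free levels from standard levels that did not overlap, and the fold was 3.26 in wild type and 14.7 in ve-1. NCU06207 was at 6402 and 6313 with iron and 11443 and 41301 without it in wild type, and at 1097 and 2532 with iron and 11619 and 14523 without it in ve-1. Its wild-type iron-free libraries were far apart and its fold there, 4.15, fell to 1.79 when only the libraries numbered 1 were compared; the fold in ve-1 was 7.20. Per kb of annotated gene span, NCU06132 had the highest iron-free mean level of the set in both genotypes (11876 and 14898 normalised counts per kb), followed by NCU06207 in both (9100 and 4510). The lowest was ecd-1, at 37.4 and 29.8 per kb.

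NCU02378 was the gene with the largest fold in wild type, 13.5, and that value came mainly from a single library. It was at 592 and 838 normalised counts with iron and at 1539 and 17837 without it, so that the replicates differed 11.6-fold; the libraries numbered 1 alone gave a fold of 2.60. In ve-1 it was at 2544 and 3489 with iron and at 13167 and 7327 without it, a fold of 3.40. The ve-1 standard libraries lay above the lower wild-type iron-free library. Replicates of 2 other abundant genes were closer. NCU08439 was at 791 and 1134 with iron and 3294 and 3876 without it in wild type, and at 764 and 993 with iron and 4126 and 5348 without it in ve-1 (folds of 3.72 and 5.39). NCU08891 was at 906 and 1669 with iron and 4794 and 5639 without it in wild type, and at 834 and 810 with iron and 3328 and 4749 without it in ve-1 (4.05 and 4.91). The standard levels of the genotypes overlapped for NCU08439, and those of NCU08891 were lower in ve-1 without a call.

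The gene with the highest smaller fold was NCU06596. It was at 106 and 62.0 normalised counts with iron and 249 and 978 without it in wild type, and at 88.0 and 82.0 with iron and 452 and 781 without it in ve-1. Its folds of 7.21 and 7.18 were nearly equal, but that of the wild-type libraries numbered 1 was 2.33 and that of those numbered 2 was 15.5. NCU10009 came next, at 187 and 331 with iron and 1546 and 3108 without it in wild type. In ve-1 it was at 186 and 199 with iron and 860 and 1449 without it. It was 8.96-fold and 5.96-fold higher without iron, and every pairing of libraries by number gave at least 4.59-fold.

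NCU00866 was at 520 and 828 normalised counts with iron and 1406 and 6558 without it in wild type, and at 227 and 298 with iron and 2727 and 2218 without it in ve-1 (folds of 5.90 and 9.39). Its ve-1 iron-free levels fell between the wild-type ones. NCU08739 was at 56.7 and 71.9 with iron and 381 and 224 without it in wild type, and at 17.4 and 36.4 with iron and 661 and 153 without it in ve-1. Here the libraries numbered 1 were the higher ones without iron in both genotypes, with folds over the group means of 4.65 and 14.6. NCU09048 was at 443 and 852 with iron and 2434 and 2892 without it in wild type, and at 265 and 267 with iron and 1084 and 1352 without it in ve-1. In ve-1 it was lower than in wild type in either medium, with no overlap, and its folds of 4.11 and 4.57 were close.

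NCU00309 was the gene whose libraries overlapped between media. It was at 293 and 876 normalised counts with iron and 2440 and 2465 without it in wild type, but in ve-1 at 357 and 310 with iron and 342 and 2478 without it. Its ve-1 fold of 4.22 thus came from the iron-free library numbered 2 alone. In wild type the iron-free libraries lay above the standard libraries for all 24 genes, which held for 30.0% of all tested genes. In ve-1 they did for the other 23, against 34.2%, and 23 genes did so in both genotypes, against 15.7%; since the rule used these values, nothing follows from that count. By library number, 15 of the 24 genes were at least 3-fold up in the wild-type libraries numbered 1, 20 in those numbered 2, and 21 and 22 in the ve-1 libraries numbered 1 and 2. In all 4 pairings 10 genes were.

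**Figure D2:**
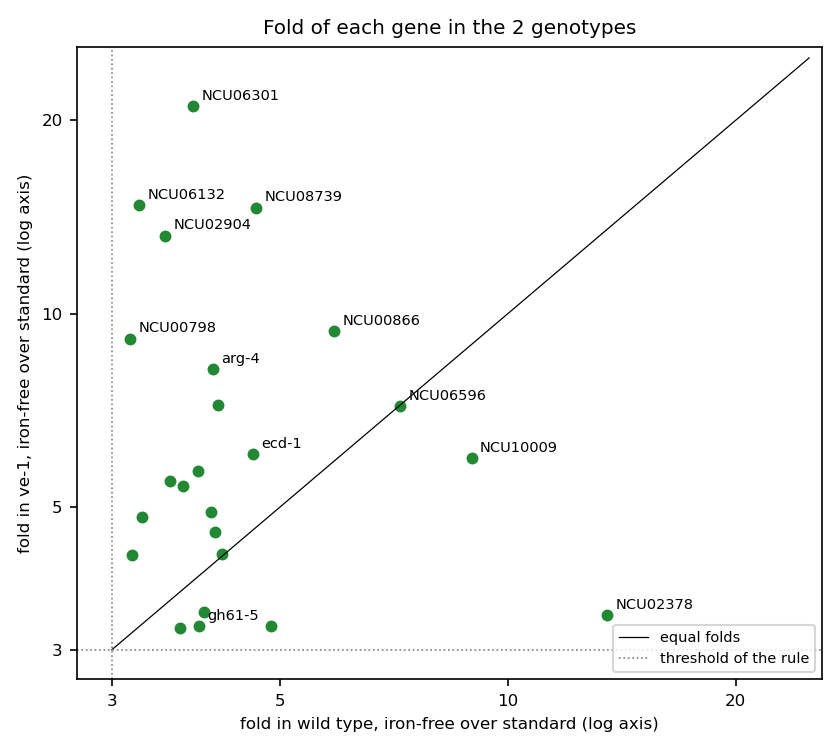
Fold of each of the 24 genes, iron-free over standard medium, in wild type (horizontal) and in ve-1 (vertical), both on log axes, from group means of 2 libraries plus 1; the solid line marks equal folds and the dotted lines the threshold of 3 that chose the genes. Most points lie above the line of equal folds, with NCU06301 at 21.0-fold in ve-1, and NCU02378 stands alone to the right at 13.5-fold in wild type.

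In edgeR's quasi-likelihood test over all 8 libraries, 11 of the 24 genes were called higher without iron in wild type (adjusted p under 0.05), where 1.47% of all tested genes were (6.57% were called in either direction and 5.10% lower), and 19 in ve-1, where 10.9% were (22.4% in either direction and 11.6% lower). All 11 were among the 19; of the 8118 genes, 0.567% were called higher in both. The rule used these contrasts, so the counts describe the precision of the values and nothing more. The wild-type count was 3 without either ve-1 standard library, and no gene was called without wild-type standard replicate 1 or without wild-type iron-free replicate 2, where 18 and 20 passed at an unadjusted p under 0.05; DESeq2 called all 24 with every library in. The ve-1 count was 2 without ve-1 standard replicate 1, 7 without ve-1 standard replicate 2 and 12 without ve-1 iron-free replicate 2. The authors' deposited tables of these comparisons list 23 of the 24 genes as higher without iron in wild type and 24 in ve-1. In all, these tables list 250 and 760 genes as higher. With every library in, DESeq2 called 1221 of 9730 genes in either direction in wild type.

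The genes just inside the fold threshold had smaller folds of 3.17 (NCU00798), 3.19 (NCU08366) and 3.24 (NCU02096). Those just outside had 2.99 (NCU06558), 2.97 (NCU04118) and 2.87 (NCU08882). Before the limits on level and on the ratio of genotypes, 64 genes outside the named exclusions were at least 3-fold up in both genotypes; the level limit removed 27 and the ratio limit 13. Among those removed by the ratio, NCU05001 was 26.3-fold up in wild type and 28.9-fold in ve-1, with iron-free means 3.53-fold apart. The nearest at the level limit were gh61-5, with a lower iron-free mean of 101.5 (the group mean plus 1), and NCU01568, with 96.6. The mirrored rule, with standard in place of iron-free medium, gave 122 genes lower without iron in both genotypes.

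Replicates within a group differed, and many of the 24 genes did so in the same direction. A high value in a single library raises the mean that chose a gene, so this is a description too. The iron-free library numbered 2 was above that numbered 1 in 19 of 24 genes in wild type and in 19 of 24 in ve-1, where 48.4% and 49.1% of all tested genes were. The same held in standard medium for 20 genes in wild type and 16 in ve-1, against 49.5% and 47.9% of all genes. In wild-type iron-free libraries 10 of the 24 genes differed at least 2-fold, all with the library numbered 2 higher, where 8.04% of all genes did in that direction. The median ratio there was 1.56 for the 24 genes and 0.990 for all genes. The genes behind it included NCU02378 (11.6-fold), NCU02096 (4.83-fold), NCU00866 (4.67-fold), NCU08319 (3.94-fold) and NCU06596 (3.93-fold). NCU02096 was at 148 and 712 normalised counts in these libraries and NCU08319 at 948 and 3735, while arg-4, NCU00309, NCU08439, NCU08891, NCU09048 and NCU08117 differed by less than 1.2-fold.

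Whether loss of ve-1 changed these genes while iron was present is a contrast that the rule did not set directly. The rule did hold both standard means at least 3-fold below the iron-free means, so a low standard mean helped a gene to pass. The counts and p-values of this contrast thus describe genes chosen in part on the same values and are not an independent test. Of the 24 genes, 6 fell in ve-1 with iron present, where 15.3% of all tested genes fell and 27.8% were called in either direction, and 18 were not called. None was called higher, where 12.5% of all genes were; none passed that way at an unadjusted p under 0.05 either, and DESeq2 called 1, NCU02378. In this contrast 9 genes were lower at an unadjusted p under 0.05. The median log2 fold change was -0.87 for the 24 genes and -0.03 for all tested genes. In 14 genes both ve-1 libraries lay below both wild-type libraries, where 37.9% of all genes did, and in 3 above, where 36.3% did.

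The largest fall was in NCU02904, from 184 and 351 normalised counts in wild type to 42.9 and 24.7 in the mutant (log2 fold change -2.99, SE 0.44, adjusted p = 0.006175). Without iron it was at 741 and 1153 in wild type and at 436 and 482 in ve-1, so ve-1 stayed the lower genotype. NCU09674 fell from 515 and 795 to 125 and 180 (-2.12, SE 0.51, adjusted p = 0.02484) and was at 1544 and 3566 against 1154 and 590 without iron. It had the widest gap between iron-free means that the rule kept, 2.93-fold. NCU06301 fell from 264 and 387 to 69.5 and 97.6 (-1.98, SE 0.38, adjusted p = 0.01221). Without iron it was at 936 and 1567 in wild type and at 1472 and 2078 in ve-1, an overlapping range, and this gave it the largest fold of the set in ve-1, 21.0 against 3.84 in wild type.

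NCU06132 fell by 1.86 on the log2 scale (SE 0.47, adjusted p = 0.02745), arg-4 by 1.58 (SE 0.41, adjusted p = 0.03059) and NCU09048 by 1.30 (SE 0.34, adjusted p = 0.02947). For arg-4 the means in standard medium were 641 ± 298 for wild type and 217 ± 99.3 for the mutant (SD, n = 2), and the libraries did not overlap. On the other side, NCU02378 was at 715 ± 174 for wild type and 3017 ± 668 for the mutant (SD, n = 2), with a log2 fold change of 2.06 (SE 0.95) that was not called (adjusted p = 0.1414). NCU04713, at 155 and 149 against 280 and 217 normalised counts, and NCU08319, at 505 and 456 against 722 and 777, were also higher in both ve-1 libraries and not called (log2 fold changes 0.70, SE 0.36, and 0.62, SE 0.56). NCU06596 and NCU02096 had log2 fold changes of -0.00390 and 0.0132 with an SE of 0.65 each, so a change near 2-fold was not detectable for them.

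The calls in standard medium depended on single libraries. Without ve-1 standard replicate 1 none of the 6 held in edgeR (6 genes were lower at an unadjusted p under 0.05), without wild-type standard replicate 2 only 1 gene was called lower, NCU02904, and without ve-1 standard replicate 2 there were 3. The summed conidiation list was higher in both ve-1 standard libraries than in both wild-type ones, with 7 of its 16 genes higher on average. That sum was carried by eas, at 439747 and 76601 normalised counts in wild type and 762785 and 837162 in ve-1. Of the 16 genes, 1 was called higher and 4 lower in ve-1, where 12.5% and 15.3% of all tested genes were. The gene called higher was con-6, and those called lower were all ccg genes (ccg-9, ccg-13, ccg-14 and ccg-16). The genes con-8, con-10, con-13, eas and fl had higher means in ve-1 and fld a lower one, none of them called. The part of the list in the falls of the 24 genes was not tested. The authors' deposited table of this comparison lists 10 of the 24 genes, 9 of them lower in ve-1. In all it lists 2197 genes, 1166 of them lower in ve-1, where the count files hold 9730.

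**Figure D3:**
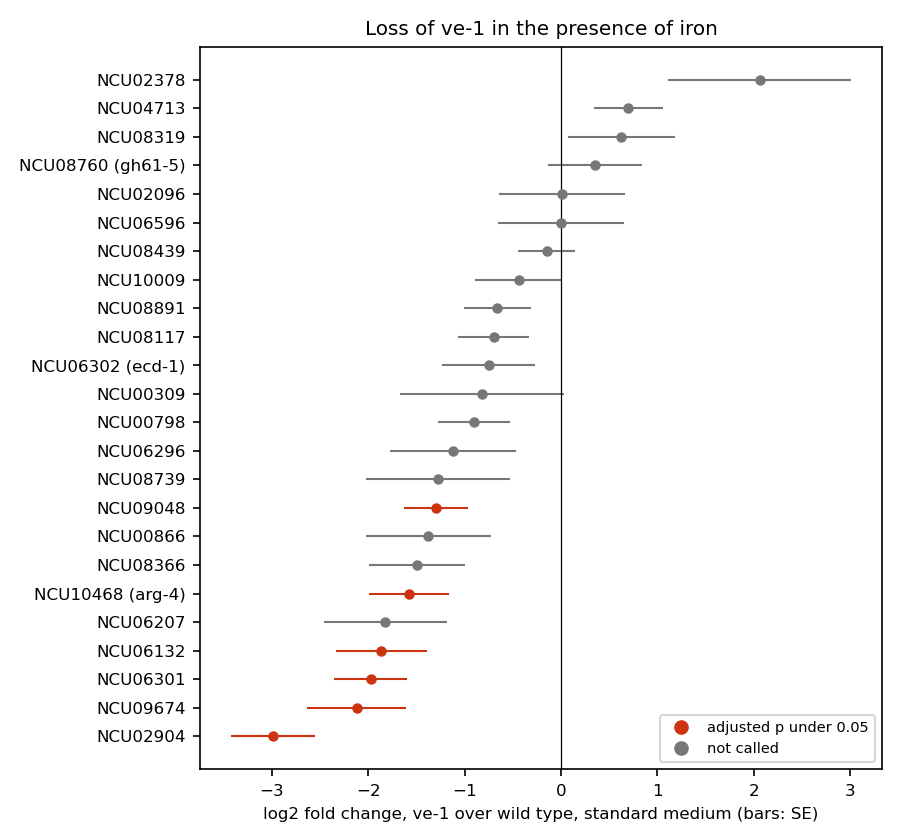
Log2 fold change of each of the 24 genes in ve-1 over wild type in standard medium, with the standard error as a bar, from the edgeR fit of 8 libraries; red points had an adjusted p under 0.05. The 6 red points lie between -2.99 and -1.30, and NCU02378, at 2.06, is the highest and was not called.

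The rest of the set had lower or middling levels. NCU08117 was at 30.7 and 42.2 normalised counts with iron and 136 and 131 without it in wild type, and at 24.3 and 20.8 with iron and 103 and 154 without it in ve-1. NCU00798 was at 54.4 and 68.2 with iron and 217 and 176 without it in wild type, and at 35.9 and 29.9 with iron and 224 and 395 without it in ve-1. For both genes the media were apart in either genotype, and the fold was the larger in ve-1 (5.49 and 9.15, against 3.58 and 3.17 in wild type). NCU08366 was at 108 and 202 with iron and 553 and 440 without it in wild type, and at 38.2 and 72.9 with iron and 159 and 316 without it in ve-1. It was lower in ve-1 in both media and was not called in standard medium (log2 fold change -1.50, SE 0.50, adjusted p = 0.06205). NCU02096 was at 105 and 126 with iron in wild type and at 97.3 and 139 with iron and 352 and 420 without it in ve-1. NCU04713 was at 320 and 682 without iron in wild type and at 1128 and 1278 in ve-1, and NCU08319 at 2150 and 2754 without iron in ve-1.

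Positions in the annotation were compared next, a step added after the data had been seen. NCU06301 and NCU06302 (ecd-1) are neighbours with overlapping annotated spans, and the strand setting of the counts is not given, so reads of the overlap could count for either. Per kb of gene span, the iron-free means of NCU06301 were 1572 and 2230 normalised counts, far above the 37.4 and 29.8 of ecd-1. NCU06301 fell in ve-1 with iron present, and ecd-1 was not called there (-0.75 on the log2 scale, SE 0.48, adjusted p = 0.2697). NCU06296 lies 4 places from NCU06301. It was at 50.8 and 258 normalised counts with iron and 517 and 716 without it in wild type, and at 61.4 and 82.0 with iron and 234 and 263 without it in ve-1. Of the genes between them, NCU06300 was tested and was 1.35-fold and 1.15-fold its standard level without iron, with neither change called (adjusted p = 0.4642 and 0.6331), and NCU06298 and NCU06299 had no counts. In all, 7 of the 24 genes overlap another annotated gene (NCU00798, NCU00866, NCU02904, NCU06207, NCU06301, NCU06302 and NCU06596), and their counts are uncertain to that extent.

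The gene gh61-5 is the end of a run of 3 neighbours that were all higher without iron. Beside it, NCU08761 was at 279 and 301 normalised counts with iron and 785 and 1125 without it in wild type, and at 163 and 174 with iron and 353 and 602 without it in ve-1. It rose in both (log2 fold changes of 1.69, SE 0.32, adjusted p = 0.02781, and 1.52, SE 0.32, adjusted p = 0.01895) and missed the set with a ve-1 fold of 2.82. Next to it is erg-3 (NCU08762), the sterol C-14 reductase gene of ergosterol synthesis, left out by name, which was 6.78-fold and 11.9-fold higher. On the other side, NCU10427 and NCU08757 had too few counts to be tested.

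NCU08439 lies 2 places from NCU08441, a gene also left out by name, which was at 880 and 1141 normalised counts with iron and 4479 and 10156 without it in wild type, and at 897 and 1665 with iron and 11634 and 16524 without it in ve-1. NCU08440, between them, followed only in ve-1. It was at 279 and 298 with iron and 306 and 242 without it in wild type (log2 fold change -0.10, SE 0.22, adjusted p = 0.7941), and rose in ve-1 from 112 and 126 to 474 and 414 (1.91, SE 0.22, adjusted p = 0.005699). Whether its response differed between genotypes was not tested. A like case was NCU06206, next to NCU06207, which was at 751 and 579 with iron and 926 and 1145 without it in wild type (adjusted p = 0.3071) and rose in ve-1 from 191 and 384 to 1781 and 1932 (log2 fold change 2.71, SE 0.37, adjusted p = 0.008235). NCU02903, next to NCU02904, rose in wild type from 60.3 and 120 to 322 and 414 (1.996, SE 0.42, adjusted p = 0.03584) and was at 32.4 and 28.6 against 35.3 and 62.1 in ve-1 (adjusted p = 0.2783).

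**Figure D4:**
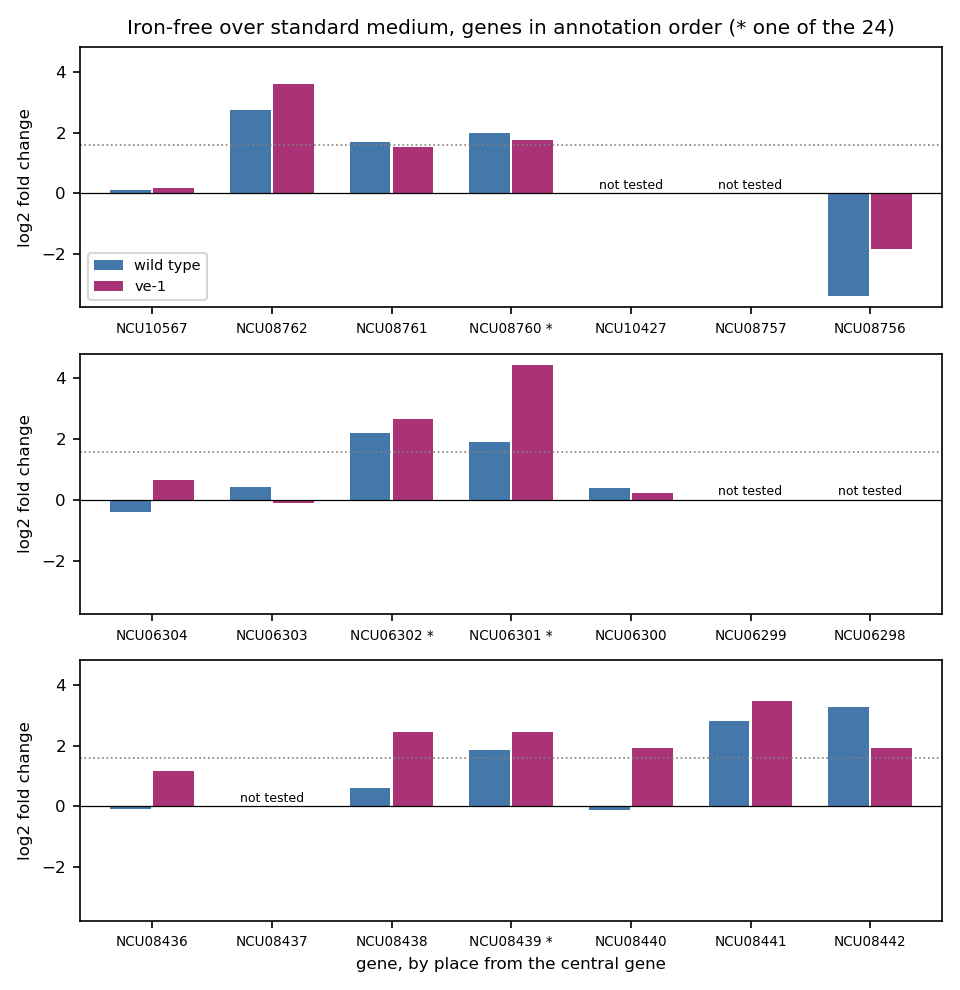
Log2 fold change, iron-free over standard medium, in wild type (blue) and ve-1 (purple) for genes in annotation order around gh61-5 (NCU08760, top), NCU06301 (middle) and NCU08439 (bottom); asterisks mark genes of the set, and the dotted line marks 3-fold. NCU08762 (erg-3) and NCU08761 stand beside NCU08760, NCU08440 has a tall bar in ve-1 (1.91) and a short one below 0 in wild type (-0.10), and the bars of NCU08438 and NCU08442 rest on genes whose highest library held 53.8 and 10.8 normalised counts and which were not called.

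Neighbours of the set were also counted together. Within 3 places of the 24 genes, there were 103 tested genes that were neither in the set nor left out by name. Of these, 3 rose without iron in wild type, 2.91% against 1.47% of all tested genes, and 12 rose in ve-1, 11.7% against 10.9%. NCU08761 was the only one called higher in both. NCU00865, directly beside NCU00866, had higher levels without iron in both genotypes and was called in neither. It was at 652.5 and 2325 normalised counts with iron and 2447 and 23204 without it in wild type. In ve-1 it was at 163 and 302 with iron and 3568 and 2047 without it. Its edgeR log2 fold changes were 3.08 (SE 1.061, adjusted p = 0.125) and 3.601 (SE 1.093, adjusted p = 0.05319). The median log2 fold change of the neighbours was 0.13 in wild type and 0.22 in ve-1, where that of all tested genes was 0.03 and 0.02. In wild type edgeR called none higher when either ve-1 standard library, wild-type standard replicate 1 or wild-type iron-free replicate 2 was left out. In ve-1 it called none when ve-1 standard replicate 1 was left out, and 3 when ve-1 standard replicate 2 or ve-1 iron-free replicate 2 was. With all libraries DESeq2 called 8 higher and 10 lower in wild type and 17 higher and 11 lower in ve-1. Of all 9730 genes it called 1221 and 2321 in either direction. Among the 37 genes directly beside a member, 2 rose in wild type (5.41%) and 5 in ve-1 (13.5%), with median log2 fold changes of 0.42 and 0.14; for the 68 genes within 2 places the medians were 0.30 and 0.34. No test compared neighbours with other genes.

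Other genes of the pathways named above were read from lists based on symbols. In the arginine and ornithine list, 5 of 13 tested genes rose without iron in ve-1 and 1 fell, where 10.9% and 11.6% of all tested genes did. They included arg-4, of the set, and arg-5, left out by name. The others were arg-10, the argininosuccinate lyase gene (log2 fold change 1.88, SE 0.32, adjusted p = 0.01164), arg-1, the argininosuccinate synthetase gene (2.21, SE 0.41, adjusted p = 0.01374), and arg-6, of the acetylated steps before ornithine (1.65, SE 0.44, adjusted p = 0.03486). In wild type arg-4 alone was called higher, and arg-1 was at 1673 against 4256 normalised counts (adjusted p = 0.08869). The gene that fell in both genotypes was ota, the ornithine transaminase gene of arginine breakdown, with -4.36 (SE 0.56, adjusted p = 0.01375) in wild type and -2.58 (SE 0.50, adjusted p = 0.0164) in ve-1. The count of rises in ve-1 was 3 without ve-1 standard replicate 2 or ve-1 iron-free replicate 2, and no gene of the list was called without ve-1 standard replicate 1 (DESeq2 called 7 higher with all libraries). The fall of ota in ve-1 was also lost without ve-1 standard replicate 2. In wild type leaving out iron-free replicate 2 ended the calls of both ota and arg-4, and leaving out standard replicate 1 that of arg-4.

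The ergosterol list had 3 tested genes, 2 of them left out by name. Of the list, 2 rose in wild type and 3 in ve-1; erg-4, the third, was at 631 normalised counts with iron and 634 without it in wild type, and in ve-1 rose from 266 to 812 (by 1.63 on the log2 scale, SE 0.36, adjusted p = 0.02092). In the conidiation list 5 of 16 genes fell in wild type, all of them ccg genes, where 5.10% of all tested genes did. In ve-1 6 fell, ccg and con genes, where 11.6% did. DESeq2 gave 10 and 7. The other metal transport list had 3 of 9 genes lower in wild type, the copper transport gene tcu-1 (-3.65, SE 0.41, adjusted p = 0.01018), tcu-3 (-2.45, SE 0.45, adjusted p = 0.02711) and tzn-2 (-2.34, SE 0.45, adjusted p = 0.03091). Of these, tcu-1 alone also fell in ve-1 (-1.73, SE 0.38, adjusted p = 0.02113), and the differences between genotypes were not tested. In ve-1 tcu-2 (1.56, SE 0.34, adjusted p = 0.02092) and tzn-1 (1.67, SE 0.44, adjusted p = 0.03472) rose. The list of iron regulators and siderophore genes held sre alone, since the annotation has no other symbol of that kind. These counts depended on single cultures. In wild type none of the ergosterol, conidiation or metal transport genes was called without wild-type iron-free replicate 2, and no ergosterol gene when either wild-type standard library was left out; the conidiation count was 1 without wild-type standard replicate 1 or wild-type iron-free replicate 1, 3 when wild-type standard replicate 2 or one of the ve-1 standard libraries was left out, and 9 when either ve-1 iron-free library was left out. In ve-1 no metal transport gene was called when any of the 4 ve-1 libraries was left out. No ergosterol gene was called there without ve-1 standard replicate 1, where the conidiation count was 1, and leaving out ve-1 iron-free replicate 2 gave 1 call in each of these lists. The ve-1 conidiation count was 3 without ve-1 standard replicate 2 and 10 without ve-1 iron-free replicate 1.

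Respiratory and tricarboxylic acid cycle genes were read in the same way, beside shares over all tested genes of 1.47% higher and 5.10% lower in wild type and 10.9% higher and 11.6% lower in ve-1. Of 29 genes of complex I, the NADH dehydrogenase of the respiratory chain, 18 rose in ve-1. None was called in wild type by edgeR, with all libraries or with any left out, and DESeq2 called 2 lower there. In standard medium 24 of the 29 complex I genes were called lower in ve-1 than in wild type, where 15.3% of all tested genes were. Their median log2 fold change was -1.25 in that contrast. For iron-free over standard medium it was -0.11 in wild type and 1.06 in ve-1. The ve-1 standard libraries enter both the count of 24 lower genes and that of the 18 rises. The count of 24 was 18 with total counts and 25 with DESeq2. It also depended on single cultures, since it was smaller when any standard library was left out, most of all ve-1 standard replicate 1. Of 17 tricarboxylic acid cycle genes, 5 fell without iron in wild type. In ve-1 7 of them rose and 2 fell, the latter close to the share of all genes. Of 15 other respiratory genes, 3 fell in wild type and 4 rose in ve-1. DESeq2 called 2 cycle genes and 1 other respiratory gene higher in wild type.

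The rises in ve-1 were all lost without ve-1 standard replicate 1. Without ve-1 standard replicate 2 they numbered 11 for complex I, 2 for the cycle and 2 for the other respiratory genes. Leaving out ve-1 iron-free replicate 1 gave 11, 5 and 2, and leaving out ve-1 iron-free replicate 2 gave 9, 2 and 1. The falls in wild type were all lost without wild-type iron-free replicate 2 and numbered 3 for the cycle and 1 for the other respiratory genes when its replicate 1 was left out instead; those of the other respiratory genes were also lost without wild-type standard replicate 1. The differences between genotypes in the response to iron were not tested.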

How the data were processed

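RNA of 8 libraries was measured as raw read counts per gene, deposited by the authors without normalization. FastQC, Trim Galore, STAR and DESeq2 are named in the submitters' processing notes, and a stranded mRNA kit in the labels' protocols; the sources used here name no counting tool, strand setting, build or annotation. The deposited tables of the authors' 4 comparisons hold mean normalised counts (a signal per group, per the file headers), log2 fold changes and adjusted p-values, with no value above an adjusted p of 0.05, and served only to count listed genes. Symbols and gene order were taken from RefSeq (assembly NC12), where 9729 of 9730 identifiers had an entry; since the authors' build is not named, no coordinates are printed.

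The members, lists and tests were chosen with earlier results of these data known. Levels are counts divided by median-of-ratios size factors. Tests used edgeR 4.0.16 in R 4.3.3: filterByExpr (minimum count 10, total 15; 8118 genes), TMM factors, 4 groups in 1 fit, robust quasi-likelihood F tests with 4 residual degrees of freedom (two-sided), and Benjamini-Hochberg adjustment over tested genes. SE is the log2 fold change over the square root of F. The test was also run on simulated counts with few genes changed and in a single group only, unlike these data, and nothing is read from that run. DESeq2 1.42.0, other scalings, other fits and leaving out each library were tried. Between replicates, chi-square over its degrees of freedom was 39.3 to 171.2, so none was a repeat of another.

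Named by rule were the 8 genes with the highest smaller fold, the 5 most abundant without iron and those with symbols. So were the 4 largest calls each way in standard medium, the 3 on each side of the fold threshold and members neighbouring each other. Outside the set, sre and up to 4 called genes a list were planned. Members are given with every library, the 3 outside the threshold by folds, and sre and most list genes by means or log2 fold changes. Iron calls of the conidiation, complex I, tricarboxylic acid cycle and other respiratory lists are given as counts only. Lists of glyoxylate cycle, peroxide and superoxide, sulfur, sugar transport and heat shock genes were counted too and are not reported here. The remaining members were added so that all are described. Genes beside members, arg-6, arg-10, erg-4, tcu-2 and tzn-1 were named after their values were seen. Means are given ± SD over 2 libraries.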

Additional observations from a re-analysis of the deposited data

How the results depend on the processing

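The number of genes that met the rule was 76 with total-count scaling, 101 at a fold of 2, 10 at a fold of 4, and 4 with the lowest iron-free library set against the highest standard library; it ran from 13 to 40 with a library left out. All 24 genes were among those 76 and 101, and 12 of the 24 were among the 13 found without wild-type iron-free replicate 2. With total-count scaling the median of all genes moved to 0.28 for the genotypes in standard medium and to 0.55 for iron-free medium in wild type, on the log2 scale, so changes are given relative to TMM.

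With iron present, for ve-1 against wild type, the members called ran from 0 to 9 with a library left out (lower, 0 to 8; higher, 0 to 1), and the all-gene count from 104 to 2361, where it was 2258 with all libraries. The number called higher was 1 with DESeq2, 1 with total counts and 2 in a fit of only the groups compared. For iron-free medium in wild type, the members called were 24 with DESeq2, 23 with total counts and 0 in a fit of only the groups compared (23 at an unadjusted p under 0.05), and 0 to 11 with a library left out. All genes called numbered 533, and 1221 with DESeq2, 1290 with total counts, 125 with only the groups compared and 7 to 645 with a library left out. In ve-1 the members called ran from 2 to 22 and all genes called from 59 to 1756, against 1822 with all libraries. No call on a gene of the set reversed in any fit. A library left alone in its group was assumed to vary like the others.

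Whether replicate numbers pair the libraries was not settled. Deviations of same-numbered libraries correlated at 0.06 between media in wild type and at -0.0024 in ve-1, at 0.06 and -0.03 between genotypes in standard and iron-free medium, and at 0.13 and 0.12 across both. Raw counts of the mating-type gene matA-1 were 118 and 74 in the wild-type libraries numbered 1 and 0 in those numbered 2, and 0 and 1 against 403 and 5 in ve-1. With a replicate block for number, 8 members were called in standard medium, and 14 in wild type and 19 in ve-1 for iron; with a replicate block within genotype the iron counts were 8 and 19, and all genes called in wild type numbered 326. Promoter motifs were planned and not analysed here. With 2 libraries a group, changes near 2-fold were often not detectable.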
